A study of Mus musculus with 42 samples.

Results

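The 35 genes described here encode the transporters and enzymes of glycolysis, the regulators of its flux, and the genes of the oxygen-sensing pathway. They were taken as a fixed list of symbols, and all 35 of 35 were present in both RNA tables, which held 26323 named genes for CD1 mice and 35972 for C57BL/6 mice. The list held 3 transporters, 17 glycolytic enzymes, 4 regulators of flux, 4 genes of the hypoxia-inducible factors and their hydroxylases, and 7 genes known to be induced by low oxygen. All 35 passed the filter on low values in each table and were tested with 18480 genes in CD1 and 21100 in C57BL/6.

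RNA of mouse lung mesenchymal cells was sequenced in 21 libraries, and 21 further libraries measured open chromatin by ATAC-seq, in which a transposase cuts accessible DNA. From CD1 mice with a Col1a1-GFP reporter, sorted cells negative for CD45, EpCAM and CD31 were taken fresh from sham lungs or after 5 days of culture. The cultures grew in DMEM with 10% FBS on PDMS gels coated with collagen-1, either soft at 0.2 kPa or stiff at 32 kPa, with 3 RNA libraries in each of these groups. From C57BL/6 mice, lineage-traced Col1a2-expressing cells negative for CD45 and EpCAM, with no CD31 gate, were sorted after sham treatment or 14 or 56 days after bleomycin, with 4 RNA libraries in each group. Bleomycin damages the lung and leads to scarring. Lungs were digested for 45 min before sorting in both strains. The reporter marks cells that use the Col1a1 promoter. The lineage trace marks cells by past use of the Col1a2 promoter, which need not be in use at sorting. The labels number the replicates without naming animals or cultures, so the spread between libraries that the p-values rest on may be technical. The CD1 comparison sets cells grown in a dish against cells just sorted, so culture and the absence of fresh digestion cannot be told apart.

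Glycolysis splits glucose into pyruvate in the cytosol. Slc2a1 brings glucose in, hexokinase traps it, phosphofructokinase sets the pace, and lactate dehydrogenase turns pyruvate into lactate, which Slc16a transporters carry across the membrane. When oxygen is scarce the subunits Hif1a and Epas1 escape hydroxylation by the Egln enzymes, bind the short core sequence of the hypoxia response element, and switch on many glycolytic genes. Hif1a protein is controlled mainly by its stability, so the RNA of a HIF gene does not measure its activity.

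To show what lies before the starts of these genes, the 250 bases before the start are printed for 6 members, from RefSeq on GRCm38.p6, 5′ to 3′ on the gene's strand. The first 4 are genes whose RNA rose both in culture and at day 14, Pdk1 fell in culture, and Adm fell at day 14. Capitals mark the hypoxia response element cores ACGTG and GCGTG, searched on both strands, where they read CACGT and CACGC on the other strand. The palindrome CACGTG counts as a match on each strand.
Slc2a1, chr4:119108495-119108744, plus strand: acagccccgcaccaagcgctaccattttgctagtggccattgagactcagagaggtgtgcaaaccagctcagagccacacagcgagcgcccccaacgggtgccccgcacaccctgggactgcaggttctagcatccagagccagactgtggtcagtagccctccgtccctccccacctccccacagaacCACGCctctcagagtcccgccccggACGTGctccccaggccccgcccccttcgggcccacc
Pgk1, chrX:106186850-106187099, plus strand: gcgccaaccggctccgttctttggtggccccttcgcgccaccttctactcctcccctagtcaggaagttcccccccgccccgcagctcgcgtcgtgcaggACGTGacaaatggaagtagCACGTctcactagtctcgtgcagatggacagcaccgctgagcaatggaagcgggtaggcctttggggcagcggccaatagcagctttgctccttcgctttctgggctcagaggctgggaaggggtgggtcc
Eno1, chr4:150236947-150237196, plus strand: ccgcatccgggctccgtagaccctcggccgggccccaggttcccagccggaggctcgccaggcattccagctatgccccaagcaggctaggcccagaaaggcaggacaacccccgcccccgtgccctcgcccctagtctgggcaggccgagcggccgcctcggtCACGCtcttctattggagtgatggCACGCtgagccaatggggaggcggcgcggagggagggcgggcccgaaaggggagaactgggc
Ldha, chr7:46845554-46845803, plus strand: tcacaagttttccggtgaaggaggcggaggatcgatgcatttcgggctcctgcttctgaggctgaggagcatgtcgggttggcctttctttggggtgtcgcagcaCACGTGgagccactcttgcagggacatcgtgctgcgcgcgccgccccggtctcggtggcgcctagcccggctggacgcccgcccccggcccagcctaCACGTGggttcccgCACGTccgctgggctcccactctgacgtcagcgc
Pdk1, chr2:71872974-71873223, plus strand: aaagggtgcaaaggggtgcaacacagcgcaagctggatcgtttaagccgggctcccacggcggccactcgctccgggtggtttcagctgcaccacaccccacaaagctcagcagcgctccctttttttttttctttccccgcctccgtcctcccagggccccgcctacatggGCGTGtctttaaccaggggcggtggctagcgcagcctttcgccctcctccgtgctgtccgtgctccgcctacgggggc
Adm, chr7:110627407-110627656, plus strand: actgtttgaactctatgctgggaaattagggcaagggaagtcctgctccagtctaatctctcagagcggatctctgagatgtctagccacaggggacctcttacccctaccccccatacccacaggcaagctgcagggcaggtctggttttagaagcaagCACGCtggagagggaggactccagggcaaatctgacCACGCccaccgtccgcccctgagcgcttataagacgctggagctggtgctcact

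The window of Ldha held 5 matches of ACGTG, because it contains the palindrome at 2 places, and none of GCGTG. In the window of Pgk1 ACGTG matched at 2 places, in that of Slc2a1 each core matched once, in those of Eno1 and Adm GCGTG matched at 2 places, and in that of Pdk1 at 1 place. Windows were found for 33 of the 35 members. For each gene 1 window was taken, the one nearest the listed open region over its start or, without such a region, the first listed. That window held 1 or both cores in 28 of these 33. Over all 47 windows of the members, 80.9% held a core, against 38.6% of the 32851 windows in the whole table. The members' windows also held more CG dinucleotides, with a median of 14 against 6, and both cores contain CG. Cores also lay before genes that fell: 11 of 15 members higher on 0.2 kPa had one, as did 8 of 9 members that were lower and 9 of 9 that were not called.

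Libraries held 35858180 to 69524944 recovered reads in CD1 and 14288605 to 51288435 in C57BL/6. Levels are given as scaled CPM, which are reads rescaled between libraries and scaled to a common library size (CPM, counts per 1e6 reads), and fold changes are on the log2(rescaled value + 1) scale of limma, with standard errors (SE) and Benjamini-Hochberg adjusted p under 0.05 as the threshold for a call. Among the C57BL/6 libraries, sham replicates 1 and 2 and day 56 replicates 2 and 3 had reads on fewer genes than the others. The fibroblast markers Col1a1, Col1a2, Col3a1, Pdgfra, Dcn and Lum were present throughout, with a summed level of 54530 to 66879 scaled CPM in fresh CD1 cells, 4274 to 5010 on 0.2 kPa, 4418 to 4482 on 32 kPa, 29311 to 44064 in C57BL/6 sham, 85035 to 107506 at day 14 and 27085 to 43224 at day 56.

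In culture the glycolytic pathway split in 2 directions: 10 of 17 enzymes rose on 0.2 kPa, among them Eno1, Pkm, Pgk1, Ldha, Hk2 and Pfkl, whereas Pfkm, Pfkp, Eno2, Ldhb, the 4 regulators of flux and the HIF subunit Epas1 fell. Of the 35 members, 15 were higher and 11 lower on 0.2 kPa than in fresh cells, and 9 were not called. Of all tested genes 71.1% were called, 31.9% higher and 39.2% lower, so the count alone does not set the members apart. On 32 kPa 16 were higher, 12 lower and 7 not called, against 73.4% of all genes called, 32.4% higher and 41.0% lower. The groups did not overlap in 29 members on each gel, beside 76.4% of all genes on 0.2 kPa and 73.1% on 32 kPa. The members' median log2 change was 0.36 on 0.2 kPa and 0.39 on 32 kPa, beside −0.22 and −0.26 over all tested genes. Scaling on total reads alone moved the median of all genes on 0.2 kPa to −0.04 and called 18 members higher and 11 lower, so directions are relative to that shift. In bulk RNA, fewer cells of a type and less RNA per cell cannot be told apart.

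Slc2a1, the main glucose transporter of fibroblasts, stood at 15.6, 19.3 and 16.9 scaled CPM in the fresh CD1 libraries, at 129, 145 and 157 on 0.2 kPa, and at 160, 137 and 127 on 32 kPa. Every cultured library was above every fresh one. The log2 change was 3.05 (SE 0.12, limma adjusted p = 4.57e-09) on 0.2 kPa and 3.03 (SE 0.12, limma adjusted p = 4.45e-09) on 32 kPa. Slc16a1, a carrier of lactate and pyruvate, rose by 1.34 and 1.46 on the 2 gels. Slc16a3, the carrier tuned to lactate export, did not pass the test in culture, with 4.10 ± 0.05 scaled CPM in fresh cells (SD, n = 3), 5.30 ± 0.73 on 0.2 kPa (SD, n = 3) and 5.94 ± 2.04 on 32 kPa (SD, n = 3). Its highest fresh value, 4.15, was below the lowest on 0.2 kPa, 4.54, and on 32 kPa, 4.24. Without 32 kPa replicate 2 it was called higher on 32 kPa (0.69, limma adjusted p = 0.0193).

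**Figure D1:**
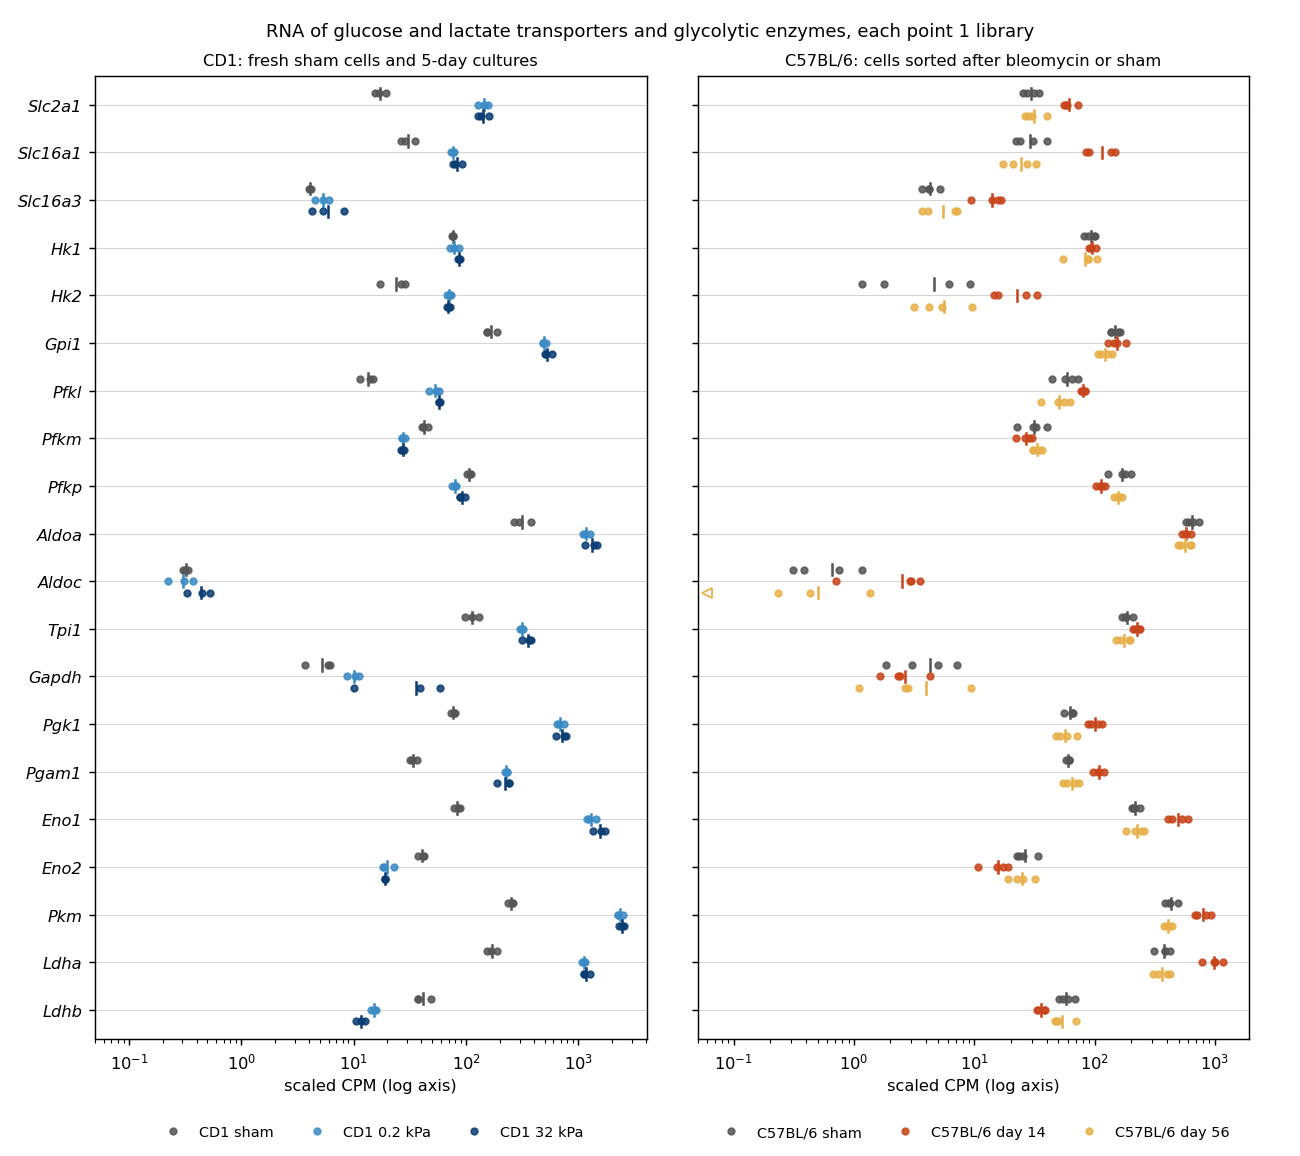
Scaled CPM of the 3 transporters and 17 glycolytic enzymes on a log axis, with 1 point per RNA library, a bar at the group mean and an open triangle at the left edge for a library at 0. CD1 groups are on the left and C57BL/6 groups on the right; in Eno1 all cultured points lie between 1193 and 1732, far from the fresh points at 77.7 to 87.6.

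Among the 17 enzymes, 10 rose and 4 fell on 0.2 kPa, and 11 rose and 4 fell on 32 kPa. Eno1, the broadly expressed enolase, changed most, from 77.7, 87.6 and 84.8 scaled CPM in fresh cells to 1193, 1233 and 1420 on 0.2 kPa and 1732, 1594 and 1340 on 32 kPa. Its log2 change was 3.94 (SE 0.12) and 4.21 (SE 0.12). Reads of Eno1 are uncertain, because 3 annotated genes are near-identical to it, and the table's 1 copy, Eno1b, took 11.1 to 19.0% of their joint reads in CD1. The lowest cultured library was far above the highest fresh one.

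Pgk1 and Pgam1, which act in its later, energy-yielding steps, rose by 3.16 and 2.75 on 0.2 kPa and by 3.22 and 2.72 on 32 kPa. Pkm, the pyruvate kinase of most tissues, went from 235, 262 and 256 scaled CPM to 2243, 2263 and 2506 on 0.2 kPa and 2535, 2438 and 2296 on 32 kPa. Its log2 change was 3.22 (SE 0.11) on 0.2 kPa and 3.27 (SE 0.11) on 32 kPa. Ldha, which makes lactate, stood at 153, 188 and 166 in fresh cells, 1130, 1079 and 1137 on 0.2 kPa and 1258, 1129 and 1119 on 32 kPa, a log2 change of 2.73 (SE 0.11) and 2.79 (SE 0.11). For all of these genes the cultured and fresh libraries were fully apart. Changes were smaller in the earlier steps: Hk2 by 1.59, Gpi1 by 1.59, Pfkl by 1.98, Aldoa by 1.92 and Tpi1 by 1.47 on 0.2 kPa. Aldoa splits the 6-carbon sugar and Tpi1 interconverts its products, and both kept this size on 32 kPa, at 2.08 and 1.65.

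Hk1, the housekeeping hexokinase, did not pass the test, with 76.0 ± 1.2 scaled CPM in fresh cells (SD, n = 3), 78.7 ± 7.1 on 0.2 kPa (SD, n = 3) and 86.3 ± 1.5 on 32 kPa (SD, n = 3). The 95% interval of its log2 change on 0.2 kPa was −0.15 to 0.25. Aldoc was close to the lower limit of these libraries, at 0.22 to 0.53 scaled CPM, and was not called. Pfkm and Pfkp, the muscle and platelet forms of phosphofructokinase, fell by 0.63 and 0.43 on 0.2 kPa, and by 0.64 and 0.23 on 32 kPa. The 32 kPa call of Pfkp was lost without any 1 of 32 kPa replicates 1 and 3 and sham replicates 1 and 3, with limma adjusted p from 0.0611 to 0.106. Eno2, the neuronal enolase, dropped from 37.0, 41.6 and 41.9 scaled CPM to 18.4, 22.7 and 18.7 on 0.2 kPa and 19.1, 18.9 and 18.9 on 32 kPa. Ldhb, the heart-type subunit that favours lactate oxidation, dropped from 37.6, 48.3 and 37.2 to 15.2, 14.3 and 15.9 and to 11.7, 10.6 and 12.6, so the isoform changes ran against those of Eno1 and Ldha.

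Gapdh was unusual for a gene of such high textbook abundance, at 5.96, 3.67 and 6.15 scaled CPM in fresh cells and 10.2, 11.3 and 8.79 on 0.2 kPa. On 32 kPa it was 38.7 and 58.8 in replicates 1 and 2 and 10.1 in replicate 3, and only that comparison passed the test (log2 change 2.47, SE 0.51, limma adjusted p = 0.00119). GENCODE M21 lists 74 genes with near-identical coding sequence, of which 69 are pseudogenes, and the 4 in the tables took 10.2 to 44.7% of the joint reads in CD1 and 15.5 to 78.5% in C57BL/6. The labels and headers do not say how reads that match several genes were counted, and the values of Gapdh are therefore uncertain. Near-identical annotated genes also exist for Bnip3 (4), for Ldha and Pgk1 (2 each), and for Gpi1, Pgam1, Pkm and Ldhb (1 each). None of these was among the named genes in CD1 or C57BL/6, so their share of the reads could not be measured.

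The 4 regulators of flux all fell on both gels. Pfkfb3 and Pfkfb4 make fructose 2,6-bisphosphate, which speeds phosphofructokinase, and dropped by 1.09 and 0.93 on 0.2 kPa. Pdk1 inactivates pyruvate dehydrogenase and so slows pyruvate oxidation in the mitochondrion. It was at 7.22, 7.75 and 8.90 scaled CPM in fresh cells. On 0.2 kPa it was at 1.79, 2.09 and 1.94, and on 32 kPa at 1.81, 1.76 and 2.27. No cultured library reached a fresh one, and the log2 change was −2.02 (SE 0.20, limma adjusted p = 5.43e-06) on 0.2 kPa. Pdk4 fell by 0.71 on 0.2 kPa and by 0.46 on 32 kPa.

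The HIF subunits moved apart. Hif1a was 106, 94.0 and 93.4 scaled CPM in fresh cells, 153, 133 and 125 on 0.2 kPa and 119, 104 and 152 on 32 kPa. The change passed the test on 0.2 kPa (0.48, SE 0.14, limma adjusted p = 0.0102) and not on 32 kPa (0.33, SE 0.14, limma adjusted p = 0.0518), where edgeR and DESeq2 on recovered reads did call it (adjusted p = 0.0481 and 0.0446). Epas1, the HIF subunit best known from vessels and lung, was 76.3, 61.1 and 87.4 in fresh cells, 6.90, 8.58 and 7.88 on 0.2 kPa and 7.91, 9.19 and 6.74 on 32 kPa. Its log2 change was −3.25 (SE 0.17) and −3.23 (SE 0.17). The endothelial markers fell in the same comparison, 8 of 9 on each gel, with a summed level of 269 to 293 scaled CPM in fresh cells, 10.2 to 11.9 on 0.2 kPa and 10.2 to 11.1 on 32 kPa, and their part in the fall of Epas1 was not tested. Among the hydroxylases, Egln3 rose by 2.14 on 0.2 kPa and 2.38 on 32 kPa, from 3.23, 3.51 and 3.71 to at least 14.7 in every cultured library, while Egln1 was not called on either gel.

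Of the 7 hypoxia-induced genes, 1 rose, 2 fell and 4 were not called on 0.2 kPa. On 32 kPa 2 rose, 3 fell and 2 were not called. Of all genes 31.9% were higher and 39.2% lower on 0.2 kPa, and 32.4% and 41.0% on 32 kPa. Beside these shares, counts out of 7 are no result about this group. Vegfa, the endothelial growth factor, rose by 0.53 and 0.42. Ndrg1, a stress-responsive gene, fell on both gels, from 135, 158 and 135 scaled CPM to 19.6, 19.7 and 22.0 on 0.2 kPa and 22.4, 24.0 and 23.7 on 32 kPa, a log2 change of −2.80 (SE 0.10) and −2.61 (SE 0.10). Bnip3, a mitophagy receptor, fell by 0.59 and 0.50, and its call on 32 kPa was lost without sham replicate 2 (log2 change −0.33, limma adjusted p = 0.0594). Ankrd37 was called higher on 32 kPa alone (0.81, SE 0.25, limma adjusted p = 0.0136), with at most 3.66 scaled CPM, and lost the call without 32 kPa replicate 2 (limma adjusted p = 0.0508). Car9, a carbonic anhydrase widely used as a hypoxia marker, was at 2.78 scaled CPM or less in every library and at 0 in 32 kPa replicate 1. Its fall on 32 kPa (−3.28, SE 1.10, limma adjusted p = 0.019) shrank to −1.85 without that library and was not called without sham replicate 1 or 3, at limma adjusted p of 0.0741 and 0.0774. Adm, the vasodilator adrenomedullin, and Ddit4, an inhibitor of mTOR signalling, were not called, with log2 changes of −0.00088 and 0.10 on 0.2 kPa.

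**Figure D2:**
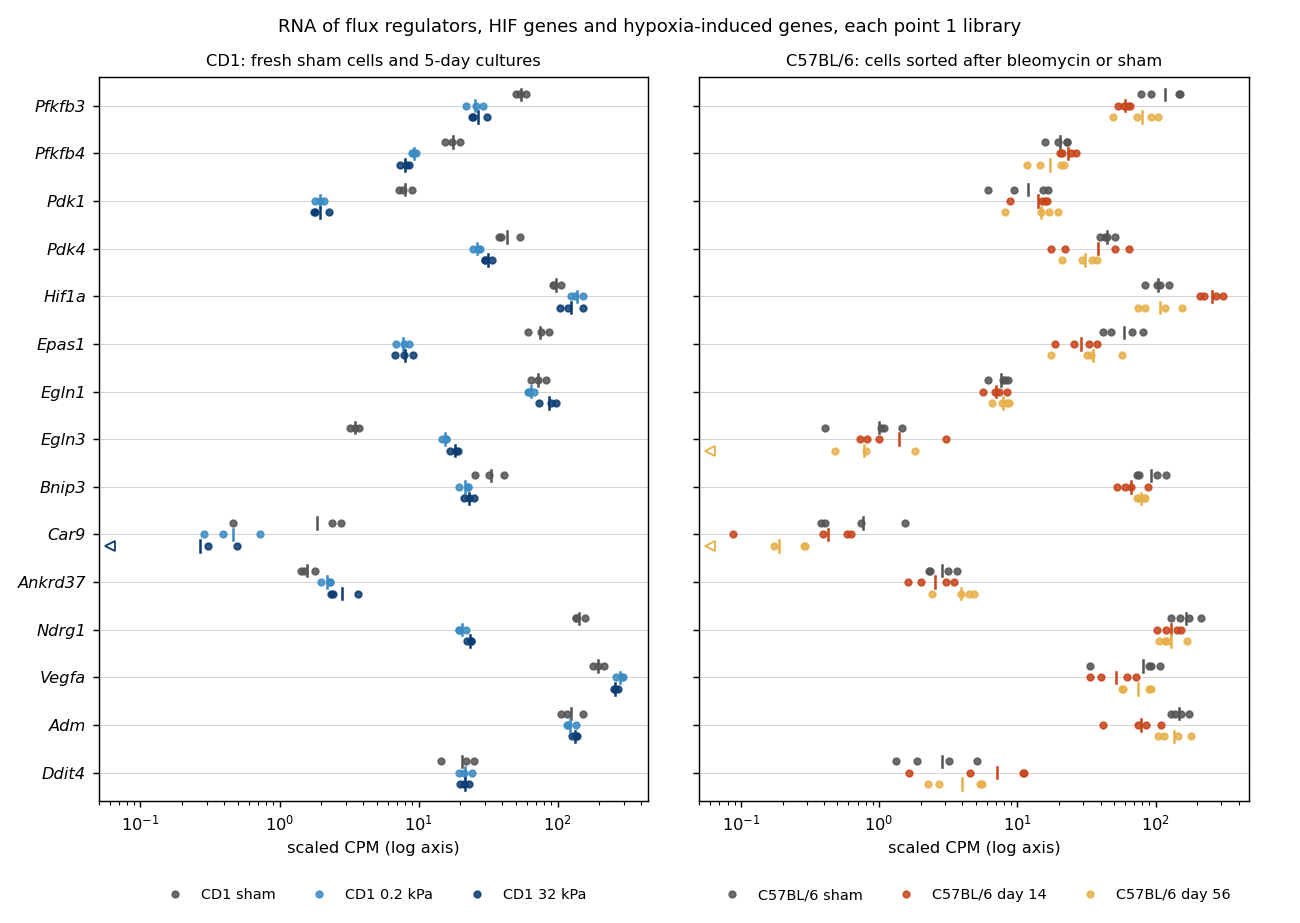
Scaled CPM of the 4 flux regulators, 4 HIF and hydroxylase genes and 7 hypoxia-induced genes on a log axis, drawn as for the enzymes with 1 point per library and a bar at the group mean. Epas1, Pdk1 and Ndrg1 in fresh CD1 cells lie apart from both cultures, and Hif1a at day 14 lies above both other C57BL/6 groups.

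Other gene groups moved in the same cultures. All 5 proliferation markers rose on each gel, with a summed level of 15.2 to 22.7 scaled CPM in fresh cells, 849 to 974 on 0.2 kPa and 840 to 900 on 32 kPa. All 8 immediate-early and heat-shock genes that mark tissue dissociation fell, from a summed 10651 to 11007 scaled CPM to 191 to 272 and 254 to 347. Of 10 leukocyte markers 8 fell on each gel and 1 rose on 0.2 kPa, with a change from 105 to 208 scaled CPM in sum to 15.9 to 22.7 and 13.4 to 13.7, epithelial markers in 10 of 10, and fibroblast markers in 6 of 6. The part of each in the members' changes was not tested.

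Related genes of the pathway were taken as lists. Of all tested genes 31.9% were higher and 39.2% lower on 0.2 kPa, and 32.4% and 41.0% on 32 kPa. Movement in both directions alone therefore does not set a list apart. Of 10 genes of the pentose phosphate route, which draws on glucose 6-phosphate, 7 rose and 2 fell on each gel, led by Taldo1 at 2.95 and Pgd at 2.50 on 0.2 kPa. Among 11 genes of pyruvate oxidation, 7 rose and 2 fell, with Dlat at 1.59 and Cs at 1.58 up, and the phosphatase Pdp1, which opposes the Pdk kinases, down by 1.56. Of 23 other glycolysis genes tested on 0.2 kPa, 10 rose and 7 fell, including a fall of 3.80 for Pdk2 and a rise of 1.81 for Pdk3, both further kinases of pyruvate dehydrogenase. Of 10 other HIF regulators, 4 rose and 4 fell, with Cited2, a competitor of HIF for its coactivator, up by 3.54 and Arnt, the partner of both HIF subunits, down by 1.47. Among 39 other hypoxia-induced genes tested, 15 rose and 21 fell on 0.2 kPa, from Hmox1 at 6.31 to Selenbp1 at −6.66.

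No member passed the test between the stiff and the soft gel. Comparing 32 with 0.2 kPa, 0 of 35 were called by limma, edgeR or DESeq2, where limma called 0% of all 18480 genes, edgeR 1 gene and DESeq2 4 higher and 39 lower. At an unadjusted p under 0.05 there were 5 members, against 5.47% of all genes. The members' median log2 difference was 0.09, and the groups of 8 members did not overlap, where 9.23% of all genes did not. The 95% interval of the difference was −0.17 to 0.31 for Ldha, −0.30 to 0.25 for Slc2a1 and 0.15 to 0.71 for Egln1. A change of 1 log2 unit lay outside the intervals of these genes. Not every member was measured as closely. Gapdh was at 10.1 ± 1.2 scaled CPM on 0.2 kPa (SD, n = 3) and 35.9 ± 24.5 on 32 kPa (SD, n = 3). Without 32 kPa replicate 3, Gapdh (2.25, limma adjusted p = 0.00919) and Egln1 (0.54, limma adjusted p = 0.0331) were called higher, together with 338 genes higher and 511 lower over the whole table.

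At day 14 after bleomycin a shorter list of the same pathway was raised in the lineage-traced cells, from uptake to lactate export, and it included Hif1a. Of the 35 members 10 were higher and 6 lower than in sham, against 15.9% of all 21100 genes called, 9.57% higher and 6.36% lower. In 17 members the groups did not overlap, beside 26.2% of all genes. The members' median log2 change was 0.04, beside 0.05 over all genes. Without the 4 libraries with fewer genes detected, 13 members were higher and 5 lower.

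All 3 transporters rose. Slc2a1 was 25.3, 27.3, 31.2 and 34.3 scaled CPM in sham and 58.5, 72.8, 57.3 and 55.7 at day 14, a log2 change of 1.05 (SE 0.17, limma adjusted p = 0.000823). Slc16a1 was 22.1, 39.9, 31.0 and 23.9 in sham and 90.4, 148, 137 and 84.2 at day 14, a log2 change of 1.97 (SE 0.25, limma adjusted p = 0.000146). Slc16a3, not called in culture, was 3.66, 4.23, 4.19 and 5.14 in sham and 9.32, 16.6, 14.1 and 15.9 at day 14, a log2 change of 1.67 (SE 0.30, limma adjusted p = 0.00176). In all 3 the lowest day 14 library was above the highest sham library.

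Of the enzymes 6 rose and 3 fell. Hk2, the inducible hexokinase, had the largest change of the 35, from 1.79, 1.17, 9.16 and 6.22 scaled CPM in sham to 15.8, 26.8, 33.3 and 14.6 at day 14, a log2 change of 2.67 (SE 0.58, limma adjusted p = 0.00606). Sham replicates 1 and 2, which had fewer genes detected, were the 2 lowest. Ldha went from 311, 382, 382 and 425 to 987, 1172, 1000 and 783, a log2 change of 1.39 (SE 0.16, limma adjusted p = 5.33e-05). Eno1 rose by 1.18, Pkm by 0.87, Pgam1 by 0.84 and Pgk1 by 0.67, all without overlap between the groups. Gpi1, Aldoa, Pfkl, Tpi1, Hk1, Pfkm, Aldoc and Gapdh were not called. The 95% interval of the log2 change was −0.26 to 0.34 for Gpi1 and −0.43 to 0.13 for Aldoa, both of which had risen in culture. Pfkl and Tpi1 had risen in culture as well. Pfkl was 44.2 to 72.2 scaled CPM in sham and 77.1 to 83.2 at day 14, without overlap. Tpi1 was 167.7 to 210.0 in sham and 209.6 to 236.4 at day 14, with overlap. Pfkp and Ldhb fell by 0.57 and 0.69, as in culture.

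Eno2 stood at 25.5, 33.7, 23.4 and 22.6 scaled CPM in sham and 15.6, 10.7, 17.2 and 19.2 at day 14, a log2 change of −0.76 (SE 0.23, limma adjusted p = 0.0336). That call was lost without any 1 of sham replicates 1, 2 and 3 and day 14 replicates 1, 2 and 3, at limma adjusted p from 0.0506 to 0.115. The call of Pfkfb3 (−0.91, SE 0.25, limma adjusted p = 0.0207) was lost without sham replicate 1 or 2 or day 14 replicate 1, at 0.0545, 0.0684 and 0.0597. In Pfkfb3 the 2 highest sham values, 150 and 148 scaled CPM, were those of replicates 1 and 2, beside 78.8 and 93.3 in the other two. Pfkfb4, Pdk1 and Pdk4 were not called at day 14.

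Hif1a itself rose at day 14, from 83.7, 102, 124 and 108 scaled CPM to 225, 310, 274 and 209, a log2 change of 1.28 (SE 0.22, limma adjusted p = 0.00125). Epas1 was 81.2, 68.1, 41.5 and 47.8 in sham and 25.5, 38.0, 18.9 and 32.9 at day 14, a log2 change of −1.05 (SE 0.33, limma adjusted p = 0.0438). The Epas1 call was lost without any 1 of sham replicates 1, 2 and 4 and day 14 replicates 1, 3 and 4, at limma adjusted p from 0.0574 to 0.133. Without the 4 libraries with fewer genes it was −0.68 (limma adjusted p = 0.0612). Egln1 and Egln3 were not called.

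None of the 7 hypoxia-induced genes rose at day 14. Adm fell, from 173, 128, 154 and 139 scaled CPM to 110, 86.1, 75.1 and 42.1, a log2 change of −0.996 (SE 0.25, limma adjusted p = 0.015). Vegfa, Bnip3 and Ndrg1 had log2 changes of −0.58, −0.47 and −0.36, and none of them passed the test. Vegfa was called lower without sham replicate 1 (−0.96, limma adjusted p = 0.0254), and Bnip3 without day 14 replicate 2 (−0.61, limma adjusted p = 0.048). Ddit4 reached 5.09 in sham and ranged from 1.66 to 11.2 at day 14, with overlap. Car9, Ankrd37 and Egln3 lay at or below 3.66 scaled CPM in every sham and day 14 library. With 9.57% of all genes higher at day 14, a count of 0 of 7 is no result about this group. In the longer list of other hypoxia-induced genes, 11 of 39 tested were higher and 3 lower, with the collagen cross-linking enzymes Lox at 2.34 and Loxl2 at 2.06 among the higher. Of the other pathway lists, 2 of 21 other glycolysis genes rose and 3 fell (Bpgm 3.10, Slc16a7 −1.65), 1 of 11 of pyruvate oxidation rose (Cs 0.37), 1 of 10 of the pentose phosphate route rose (Pgd 0.71) and 1 fell (H6pd −0.69), and 0 of 10 other HIF regulators were called by limma.

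Leukocyte markers moved with day 14 too: 7 of 10 rose, and their summed level was 249 to 350 scaled CPM in sham and 602 to 2219 at day 14, with no marker of the list at 0 in any day 14 library. Their sum was lowest in day 14 replicate 3, at 602, and highest in replicate 4, at 2219. All 5 proliferation markers rose, from a sum of 4.27 to 8.92 to one of 163 to 223, 7 of 8 dissociation genes fell, from 8649 to 13807 to 3237 to 5769, and 3 of 6 fibroblast markers rose while 2 fell. Endothelial markers had 1 of 9 lower, with a summed level of 178 to 288 scaled CPM in sham and 72.9 to 127 at day 14, and epithelial markers 2 of 10 lower, with 132 to 325 and 27.5 to 81.9, and in neither sum did the groups overlap. These cells were sorted without a CD31 gate. Within the endothelial sum the largest marker was Tek, at 117, 93.4, 264 and 150 scaled CPM in sham and 35.6, 30.8, 40.4 and 39.1 at day 14. Over each whole list the median log2 change was 0.23 for endothelial and −0.12 for epithelial markers, so the sums do not describe every marker. The part of these lists, leukocytes included, in the members' changes was not tested.

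**Figure D3:**
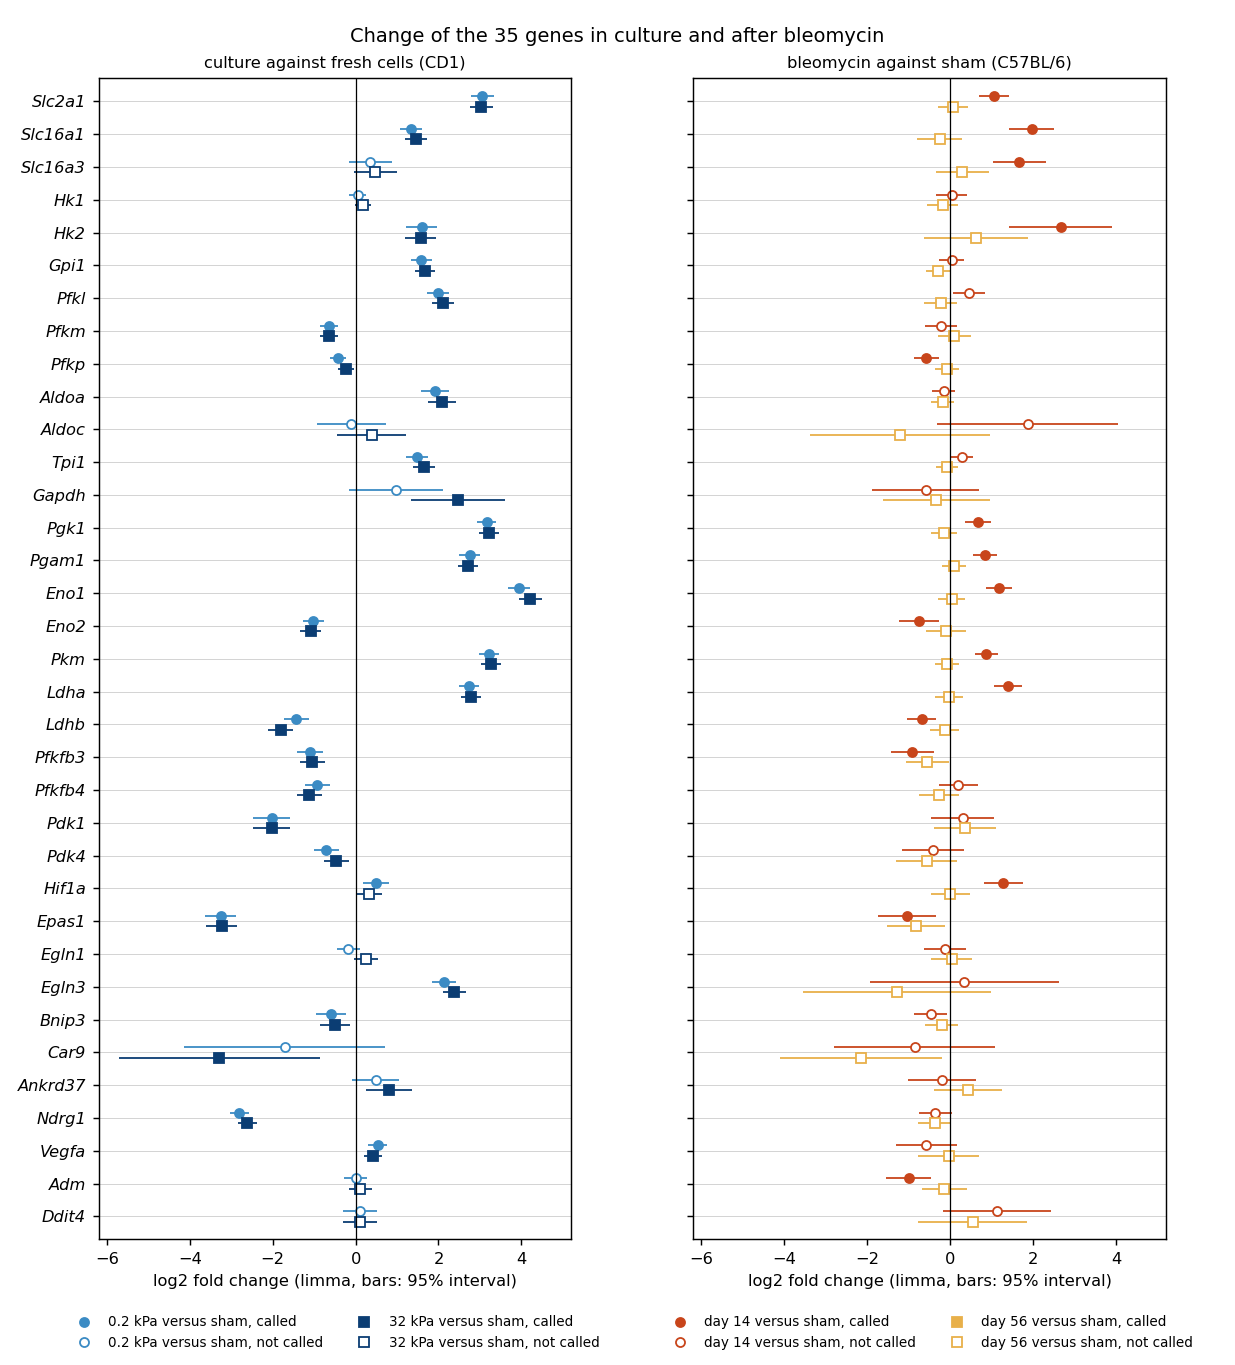
Log2 fold change of the 35 genes with 95% intervals from limma, culture on the left (circles 0.2 kPa, squares 32 kPa) and bleomycin on the right (circles day 14, squares day 56). Filled symbols passed adjusted p under 0.05; day 56 has no filled symbol, and Eno1 lies at 3.94 and 4.21 in culture and 1.18 at day 14.

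At day 56 no member passed the test against sham. Limma called 0 of 35 against sham, as did edgeR and DESeq2, where limma called 0.00474% of all genes, and 3 members had an unadjusted p under 0.05, against 6.29% of all genes. DESeq2 called 54 genes higher and 26 lower over the whole table. The groups did not overlap in 2 members, beside 2.57% of all genes. These 3 were Pfkfb3, Epas1 and Car9, with log2 differences of −0.55, −0.83 and −2.15. For Ldha the 95% interval of the difference was −0.38 to 0.30 and for Hif1a −0.47 to 0.47, so a lasting rise of the size seen at day 14 was outside both.

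Compared with day 14, 11 members were lower at day 56 and 3 higher, against 14.2% of all genes called, 5.71% higher and 8.49% lower. In 15 members the groups did not overlap, beside 20.2% of all genes. The median log2 change of the members was −0.32, beside −0.08 over all genes. The lower members were the 10 that had risen at day 14 and Pfkl. Ldha fell by 1.43 to 304, 403, 336 and 421 scaled CPM, Slc16a1 by 2.23 to 21.04, 27.5, 17.2 and 32.4, Hk2 by 2.05 to 4.22, 5.42, 3.14 and 9.55, and Hif1a by 1.28 to 118, 83.4, 74.5 and 156. Both comparisons share the day 14 libraries, so their opposite signs are not independent. The Hk2 call was lost without any 1 of day 14 replicates 2 and 3 and day 56 replicates 1 and 3, at limma adjusted p from 0.0703 to 0.0942. The call of Pfkl was lost without any 1 of day 14 replicates 2, 3 and 4, at 0.0523 to 0.0678.

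The 3 higher members were Pfkp, Ldhb and Adm, at 0.49, 0.56 and 0.85. With the values as deposited, where the median change of all genes was −0.27, 0 members were higher and 15 lower, and over all genes 777 were higher and 3035 lower, in place of 1205 and 1792. Scaled on total reads 4 were higher and 10 lower, and over all genes 1561 and 1025. None of the 3 was called without day 14 replicate 2, 3 or 4. Of the 3, only Ldhb was called without day 56 replicate 3, and only Pfkp without day 56 replicate 2. Ldhb also lost its call without day 56 replicate 1 (limma adjusted p = 0.0507). Leukocyte, red cell and proliferation markers fell over the same interval, in 6 of 10, 4 of 5 and 5 of 5, and 6 of 8 dissociation genes rose; their part was not tested.

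Several of these enzymes come as pairs, and the share of each in its family describes the shift on a scale of level per kilobase of exon. Ldha made up 72.5 to 75.1% of Ldha and Ldhb together in fresh CD1 cells, 98.0 to 98.1% on 0.2 kPa and 98.4 to 98.6% on 32 kPa. In C57BL/6 it was 75.5 to 84.2% in sham, 94.0 to 96.0% at day 14 and 79.5 to 85.6% at day 56. Hk2 was 15.8 to 23.3% of Hk1 and Hk2 in fresh CD1 cells and 38.8 to 45.5% over both gels, but 1.08 to 7.01% in C57BL/6 sham, 11.4 to 21.1% at day 14 and 2.86 to 7.54% at day 56. Pfkl took 6.74 to 8.42% of the 3 phosphofructokinases in fresh CD1 cells and 29.0 to 34.7% on the gels, while Pfkp was the largest part in every group, with medians from 46.3 to 61.5%. In C57BL/6 Pfkl was 15.9 to 29.4% in sham, 32.9 to 37.9% at day 14 and 15.4 to 23.6% at day 56. Hif1a made up 53.6 to 62.4% of Hif1a and Epas1 in fresh CD1 cells and 92.4 to 96.1% on the gels, and 52.6 to 76.4% in sham, 87.3 to 94.0% at day 14 and 58.3 to 83.6% at day 56. In each of these families the day 14 libraries lay above all sham libraries, and the cultured libraries above all fresh ones. These shares are a description, with no test. By contrast the share of Slc16a3 in the 2 lactate carriers went from 16.4 to 21.1% in fresh cells to 8.69 to 13.3% on the gels, and from 15.4 to 27.0% in sham to 15.03 to 24.5% at day 14.

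**Figure D4:**
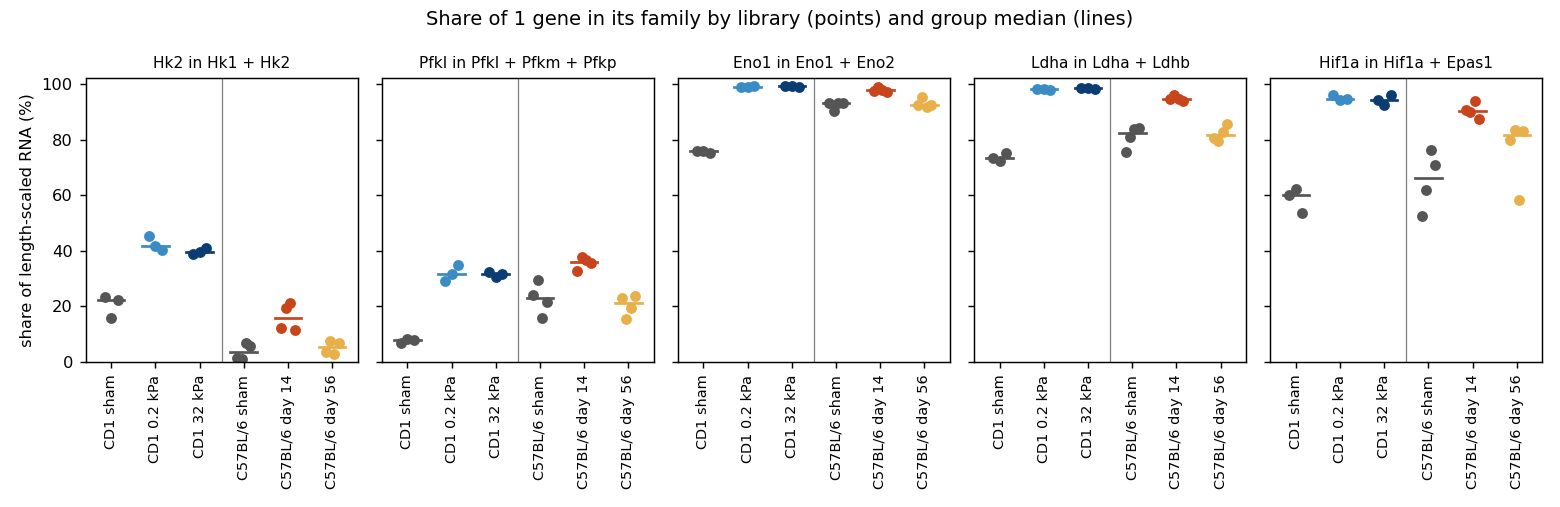
Share of Hk2, Pfkl, Eno1, Ldha and Hif1a in the length-scaled RNA of its family (%), with 1 point per library, a line at the group median and a vertical line between CD1 and C57BL/6. The share of Ldha is at most 75.1% in fresh CD1 cells and at least 98.0% in culture, and at least 94.0% at day 14.

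Culture and day 14 were then set against each other as the mean change of both gels minus the day 14 change, in 1 fit over the 16429 genes tested in both tables. Strain, reporter and sort differ between the tables as well, so these cannot be told apart from the difference. The sham levels also differed, with each strain scaled on its own. Ldha went from 169 scaled CPM in CD1 sham to 1115 on 0.2 kPa and 1168 on 32 kPa. In C57BL/6 it went from 375 in sham to 985 at day 14. In the same order, Pfkl had means of 13.4, 53.0 and 57.8, and of 59.4 and 80.2. Eno1 had means of 83.4, 1282 and 1555, and of 217 and 496. A higher change in culture therefore need not mean a higher level. Of the members 13 were higher in culture and 7 lower, against 47.7% of all genes called, 18.7% higher and 29.0% lower, with a median difference of 0.08 beside −0.29 over all genes. The change of most enzymes and of Slc2a1 was higher in culture than at day 14: by 2.90 (SE 0.19) for Eno1, 2.52 (SE 0.17) for Pgk1, 2.37 (SE 0.16) for Pkm, 2.15 (SE 0.18) for Aldoa, 1.99 (SE 0.20) for Slc2a1 and 1.37 (SE 0.19) for Ldha. Slc16a3 (−1.25, SE 0.38, limma adjusted p = 0.0113) and Hif1a (−0.87, SE 0.28, limma adjusted p = 0.0133) had the higher change at day 14, although Hif1a was not called by edgeR with scaling on total reads alone (−0.64, adjusted p = 0.0575). Hk2 (−1.09) and Slc16a1 (−0.57) did not pass this test, with 95% intervals of −2.51 to 0.33 and −1.21 to 0.07. Pdk1 (−2.33), Ndrg1 (−2.35), Epas1 (−2.19), Pfkfb4 (−1.22) and Ldhb (−0.93) had the lower change in culture. Gapdh, Vegfa and Adm were also higher by this test, at 2.31, 1.05 and 1.06. The call of Vegfa was lost on leaving out any 1 of 11 libraries (limma adjusted p 0.0531 to 0.0917), and that of Gapdh was lost without any 1 of CD1 sham replicate 2, C57BL/6 sham replicate 2 and day 14 replicate 4 (0.0503 to 0.0651).

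**Figure D5:**
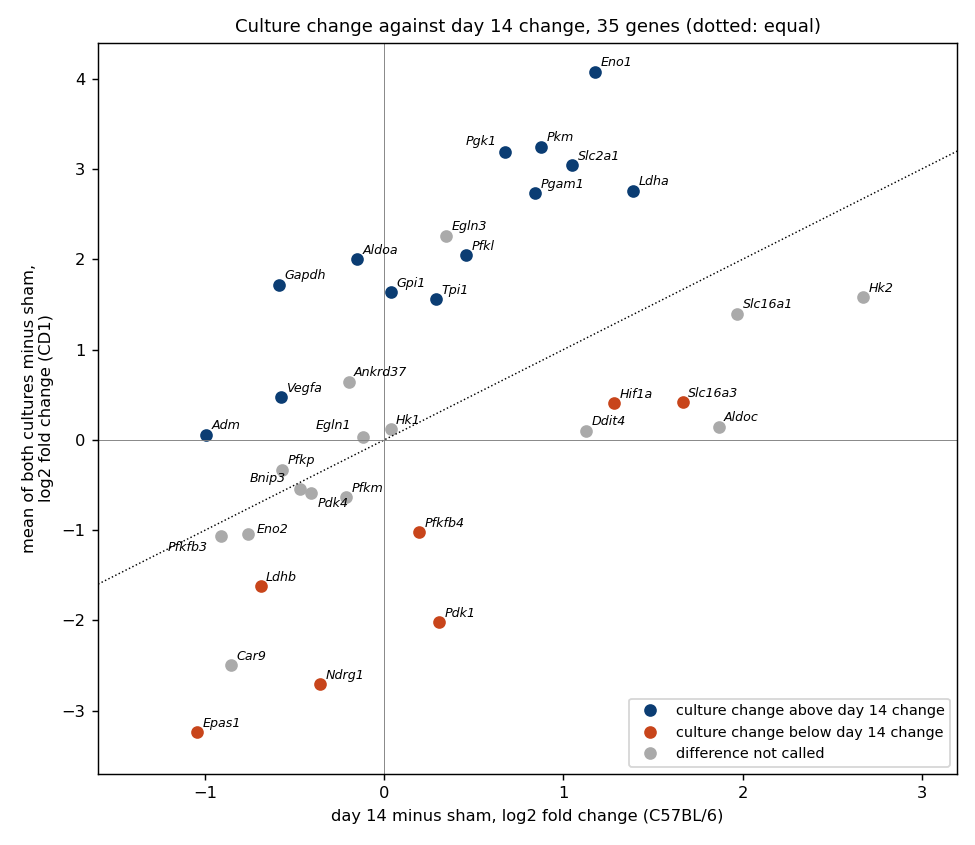
Mean log2 change of both cultures against fresh CD1 cells (vertical) by log2 change of day 14 against sham in C57BL/6 (horizontal), 1 point per gene and a dotted line where both are equal. Colours give the test of the difference: 13 genes lie above it in culture, including Eno1 and Pgk1, 7 lie below, including Epas1 and Slc16a3, and 15 were not called.

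Open chromatin near the members was described from the authors' deposited lists of regions that differ between groups, on mm10, with each region given to the nearest RefSeq start. These values are the authors' own and carry no test here. The folds against sham on 0.2 and 32 kPa were deposited as sham minus gel. Their sign was turned here, so that a negative fold means lower in culture. In the authors' deposited table of 0.2 kPa against sham, 137 regions belonged to 33 members, of which 125 were lower in culture. Of all 47475 regions in that list 87.9% were lower, so the members followed the list. The 45 member regions within 1000 bases of a start were all lower, as were 99.3% of all such regions in the list. The region over the start of Pgk1, chrX:106186664-106187369, covers the printed window. Its log2 fold from the authors' deposited table, with the sign turned, was −2.76, while the RNA of Pgk1 rose by 3.16. The regions over the starts of Ldha (chr7:46845601-46846171, −2.74), Slc2a1 (chr4:119108512-119109451, −2.97) and Eno1 (chr4:150236705-150237494, −2.48) were lower as well, by about as much as that of Pdk1 (chr2:71872847-71873615, −3.36), whose RNA fell. Because all listed member regions near starts were lower, direction could not separate members that rose from members that fell. In the authors' deposited table of 32 kPa against sham, 162 member regions were listed, 36 of them higher, beside 29.6% of all 58510, in a list that holds folds from 0.31 where the others start at 1 log2 unit, so its counts and those on 0.2 kPa are not matched. In it all 45 regions near starts were lower, beside 97.1% of all near starts.

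The authors' deposited table of 32 against 0.2 kPa held 5 member regions, all higher on 32 kPa, as were 99.7% of the 2558 regions listed. They lay in introns of Epas1 (1.89), Pfkfb3 (1.04) and Egln3 (1.29) and upstream of Pdk4 (1.16 and 1.11). At day 14, 48 member regions were listed against sham and 34, or 70.8%, were higher, beside 67.9% of the 25518 regions in the authors' deposited table. All 5 regions of Hk2 were higher, 3 of them in introns, the nearest at chr6:82761291-82761527, 13045 bases past the start, at 1.06. Of 7 regions nearest Hif1a 6 were higher, all upstream, led by chr12:73818843-73819239, 82283 bases before the start, at 3.72. A region 2993 bases before the start of Pkm, chr9:59653497-59653670, was at 3.05, and one 6368 bases before that of Slc2a1, chr4:119102261-119102494, at 1.68. Epas1 had 2 intronic regions, both lower, at −1.35 and −1.69, and Ldha 1 intronic region, also lower, at −1.51 while its RNA rose. Only 2 members had a listed region near the start, Aldoc (chr11:78322867-78323220, 1.23) and Adm (chr7:110627482-110628346), the first higher and the second lower, and Adm RNA fell. All 6 regions given to Egln3 were higher although its RNA was not called, and they lay 135789 to 450386 bases past its start. The authors' deposited table of day 56 against sham listed 4 member regions, 3 of them higher, beside 60.1% of all 1510. In the authors' deposited table of day 56 against day 14, 11 of 43 member regions, or 25.6%, were higher, beside 26.3% of all 21413.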

How the data were processed

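RNA values were deposited by the authors as a signal per gene, gene counts divided by 1 factor per library. The step between low values gave back whole reads for 100% of values within 0.05 reads. HISAT2, featureCounts, Picard and DESeq2 are named with mm10 in the submitters' processing notes, without roles, versions or strand setting. In CD1, 855 rows without a gene symbol were left out. ATAC-seq regions carry the authors' deposited log2 concentrations per group, their log2 fold and an FDR, as the file headers name them. The deposited lists hold absolute log2 folds from 1.00 and FDR up to 0.05, but the list of 32 kPa against sham holds folds from 0.31. Whether peaks were called on pooled libraries was not stated.

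Each RNA library was rescaled by 1 median-of-ratios factor per table. Tests took the genes whose rescaled value averaged 1 or more, with limma 3.58.1 (R 4.3.3), with a trend on log2(rescaled value + 1), all groups of a table in 1 fit, and Benjamini-Hochberg adjustment over all tested genes at 0.05. Alternatives were edgeR 4.0.16 quasi-likelihood and DESeq2 1.42.0 on recovered reads, other pseudocounts, filters and scaling, fits of 2 groups, a replicate block and each library left out. The fits were tested on simulated data. The members and lists were chosen with earlier results of these data known. All 35 members are named, and from each list of related genes at most the 3 with the largest called change per direction. Near-identical copies were found with blastn 2.17.0+ on GENCODE M21 transcripts, at 95% identity over at least 50% of the coding sequence. ATAC regions were assigned to the nearest RefSeq start, and the name was the same as in the deposited annotation for 92.4 to 94.1% of regions.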

Additional observations from a re-analysis of the deposited data

Results flagged for a closer look

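In 105 groups of 4 C57BL/6 libraries (35 genes in 3 groups), 5 held 1 library whose gap to the others passed Dixon's 95% critical value for 4 samples, where chance gives about 1 in 20. Slc2a1 stood at 72.8 scaled CPM in day 14 replicate 2, with the others at 55.7 to 58.5. Pgk1 stood at 55.3 in sham replicate 2, with the others at 65.2 to 66.1. Pgam1 stood at 57.7 in sham replicate 1, with the others at 60.8 to 61.0. Ldhb stood at 70.2 in day 56 replicate 2, with the others at 46.8 to 49.7. Egln3 stood at 3.02 in day 14 replicate 4, with the others at 0.727 to 0.999. Of these libraries, sham replicates 1 and 2 and day 56 replicate 2 were among the 4 with reads on fewer genes.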

How the results depend on the processing

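No called value of a member changed direction under any alternative run. For the 104 called member values, 1875 recomputed values stayed called and 79 did not, and for the values not called 2581 stayed so and 50 became called. The count of members higher at day 56 than at day 14 was least stable, at 3 with 0 on the values as deposited, 1 with only the 2 groups compared and 1 with a replicate block. Leaving out 1 library gave 0 to 3 there, 9 to 13 lower in the same comparison, 0 to 2 higher on 32 than on 0.2 kPa (2 without 32 kPa replicate 3) and 3 to 6 lower at day 14 (3 without sham replicate 2). The counts against fresh CD1 cells kept 15 higher and 11 lower on 0.2 kPa, and ranged from 16 to 18 higher and 10 to 12 lower on 32 kPa, and 10 were higher at day 14 without any 1 library.

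Replicates with the same number did not deviate together, with correlations from −0.160 to 0.069 in CD1 and −0.158 to 0.115 in C57BL/6, so the numbers were not used as pairs. With a replicate block 15 members were higher and 11 lower on 0.2 kPa, 16 and 11 on 32 kPa, 10 and 4 at day 14, and 1 and 12 at day 56 against day 14. Depth limits Aldoc, Car9, Ankrd37, Egln3 and Gapdh in C57BL/6, whose values rest on few reads.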
